A study of Bos taurus with 9 samples.

Results

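A rule chose 22 of 24616 bovine gene identifiers that were detected in the oocyte and higher, by a set gap, in cloned than in fertilised 2-cell embryos. Whether the RNA in the embryos was stored or newly made was not tested. These genes were selected on the deposited FPKM values (read fragments relative to transcript length and to the size of the library) by 6 conditions. Every MII oocyte library had to reach 1 FPKM, and the SCNT mean had to reach 5 FPKM. The lowest SCNT library had to be at least 25% above the highest IVF library. The SCNT mean had to be at least the MII mean and under 4 times it, and the mean over all 9 libraries had to be under 1000 FPKM. The difference between SCNT and IVF embryos and the SCNT level relative to the oocyte therefore chose the members, and both are described below. Fits to these 2 contrasts are quoted with their counts and standard errors as descriptions, and no call in them is evidence for the members.

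The libraries came from Holstein cattle. MII oocytes are mature eggs held at metaphase of the second meiotic division, and the labels give these samples the stage oocyte but the tissue entry "wild embryos". IVF embryos were made by fertilisation in culture, and SCNT embryos by somatic cell nuclear transfer, in which the nucleus of a body cell replaces that of the egg. Both were collected at the 2-cell stage. Each group had 3 libraries, made from pools of 3 oocytes or 6 embryos, so stage and pool size cannot be told apart in a comparison with oocytes. The donor cell, the sperm source and any treatment of the embryos are not given in the sources used here, nor is it stated whether the pools were separate animals or cultures. The p-values of the fits therefore measure only the spread between these libraries, which may be technical.

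A growing oocyte stores messenger RNA and proteins, and the early embryo lives on this store until its own genome is transcribed. In cattle the main wave of embryonic transcription comes after the 2-cell stage, although minor transcription is known before it. A stored transcript can be degraded or kept, and its poly(A) tail can be shortened or lengthened, which can change how well it is captured in a library. In a cloned embryo the same egg cytoplasm acts on a somatic nucleus. The values here are relative levels in pools of whole cells, in which fewer cells of a kind and less RNA per cell cannot be told apart.

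The file gives Ensembl identifiers without gene names. None of them matched the reference gene table used here (0 of 24616), so no function, position or sequence can be given for a member, and markers of the oocyte, of the donor cell or of cumulus cells were not checked. Members are called by their rank, from rank 1 for the largest ratio of lowest SCNT to highest IVF library to rank 22 for the smallest, and up to 2 identifiers per direction and comparison are printed. FPKM totals of the libraries lay between 1153910 and 1386980, and steps between low values gave relative depths of 80.2% to 100% of the deepest library, the lowest in MII replicate 1. No member was listed at 0 in any library. The members' values ran from 1.21 to 948 FPKM.

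The conditions on the oocyte and on abundance left 2716 genes, and the gap of 25% then left 22 of these. In the 2716 genes the direction was mostly the reverse. Their median ratio of lowest SCNT to highest IVF library was 0.685, but such a ratio tends to fall below 1 also for groups at equal levels. Their median ratio of SCNT to IVF means was 0.873, and the SCNT mean was above the IVF mean in 743 (27.4%). Every SCNT library was above every IVF library in 177 (6.52%) of them, and in 438 (4.63%) of the 9458 genes that had at least 1 FPKM in at least 3 libraries. With SCNT and IVF exchanged in the rule, on FPKM as deposited, 3837 genes met the conditions other than the gap. Of these, 436 (11.4%) met the gap as well, against 0.81% for the rule as used. The exchanged rule was not counted under other scalings. The rule as used chose 117 genes after median-ratio scaling and 108 after quantile normalization. As deposited, the median log2 difference of all 9458 genes between SCNT and IVF embryos was -0.25 on the log2(FPKM + 1) scale, which understates changes of low genes. It was -0.31 with FPKM rescaled to a common total, -0.04 after median-ratio scaling and -0.03 after quantile normalization. The latter scalings level the libraries and so hold this median small by construction. They cannot show whether most genes were lower in SCNT embryos.

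**Figure D1:**
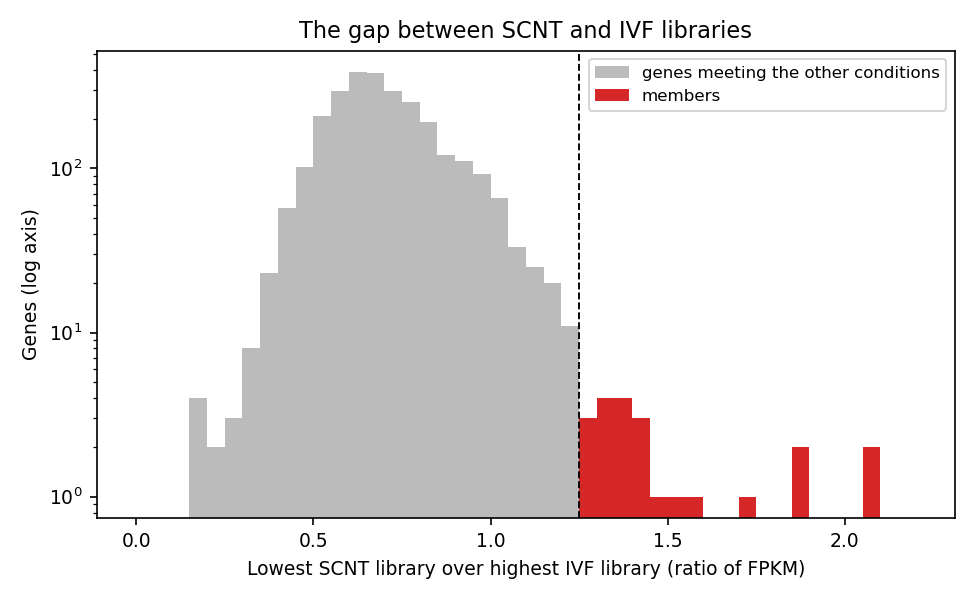
Number of genes (log axis) by the ratio of the lowest SCNT to the highest IVF library, for the 2716 genes that meet the conditions other than the gap; the dashed line marks the gap the rule asked for. The bulk lies below 1, with a median of 0.685, and the 22 members form the thin right end up to 2.10. A ratio of lowest to highest library tends to fall below 1 also for groups at equal levels.

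Ratios ran on without a break across the border of the gap. The members closest to it had ratios of 1.264, 1.287 and 1.297, and the nearest genes outside had 1.246, 1.246 and 1.240. A gap of 1.1 would admit 78 genes and a gap of 1.5 only 7. At the upper limit of 4 times the oocyte, the nearest members were at 3.74, 3.72 and 3.70 and the nearest genes outside at 4.22, 4.36 and 4.42. At the lower limit the nearest members were at 1.04, 1.30 and 1.47 times the oocyte, against 0.979, 0.949 and 0.916 outside.

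Members ranged widely in abundance. The mean over the 9 libraries was under 5 FPKM in 1 member, from 5 to 100 FPKM in 12 and from 100 to 1000 FPKM in 9. Among the 2716 genes these classes held 87, 2237 and 392. The highest class thus gave 2.30% of its genes as members and the middle class 0.536%. The lowest class, with 1 member of 87 genes, lay between them, so the shares did not rise steadily with abundance. These shares are given without a test.

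ENSBTAG00000011413, the member of rank 1, was also the least abundant. SCNT replicates 1, 2 and 3 had 5.91, 6.04 and 7.57 FPKM. The IVF replicates, in the same order here and below, had 2.82, 1.88 and 1.21 FPKM, and the oocyte replicates 1.88, 1.71 and 1.63 FPKM. The SCNT libraries lay far above both other groups, which overlapped. Cloned embryos averaged 6.51 ± 0.924 FPKM (SD, n = 3), fertilised embryos 1.97 ± 0.809 FPKM (SD, n = 3) and eggs 1.74 ± 0.124 FPKM (SD, n = 3). Its log2 difference between SCNT and IVF embryos was 1.37 (SE 0.208). Relative to the oocyte it had the highest SCNT level of any member, 3.74 times.

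The member of rank 2, ENSBTAG00000044078, was the most abundant of all. Its SCNT replicates had 802, 858 and 948 FPKM, its IVF replicates 390, 349 and 344 FPKM and its oocyte replicates 489, 365 and 567 FPKM. All SCNT libraries were above all others, and IVF embryos overlapped the lower part of the oocyte range. Its SCNT mean of 869 ± 73.5 FPKM (SD, n = 3) was 2.41 times the IVF mean of 361 ± 25.3 FPKM (SD, n = 3) and 1.84 times the oocyte mean of 473 ± 102 FPKM (SD, n = 3). The log2 difference between SCNT and IVF embryos was 1.26 (SE 0.157).

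Across the 22 members the ratio of SCNT to IVF means ran from 1.38 to 3.31 with a median of 1.76. It was at least 2 in 9 members and at least 3 in 3, those of ranks 1, 3 and 16. The limma fit over all 9 libraries gave log2 differences from 0.46 to 1.53 (median 0.81, or 1.06 above the median of all genes tested). At an adjusted p under 0.05 it called 4 members higher after cloning, those of ranks 1, 2, 5 and 6, where 0.116% of all genes tested were called in that direction. At an adjusted p under 0.1 it called 18, where 1.66% of all genes were called. The rule used this contrast, so nothing is read from these counts.

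The number of members called moved strongly with the libraries in the fit. It was 22 when only the SCNT and IVF libraries were fitted, where 141 of 9458 genes were called higher. Without MII replicate 2 it was 20, where 172 of 9387 genes were. The main fit called 11 genes higher. Without IVF replicate 3 limma called 0 members, with 20 below 0.05 before adjustment, and 6 of 9279 genes. Without SCNT replicate 3 it called 0 members, with 21 below 0.05 before adjustment, and 0 of 9365 genes. The count was 7 without SCNT replicate 1, 2 without IVF replicate 1, and 1 each without IVF replicate 2 and SCNT replicate 2. In that order 31, 10, 6 and 3 of all genes were called higher. Counts over all genes thus moved as well. The gap between the libraries that the rule asked for fixes the sign of the difference in all of these fits.

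**Figure D2:**
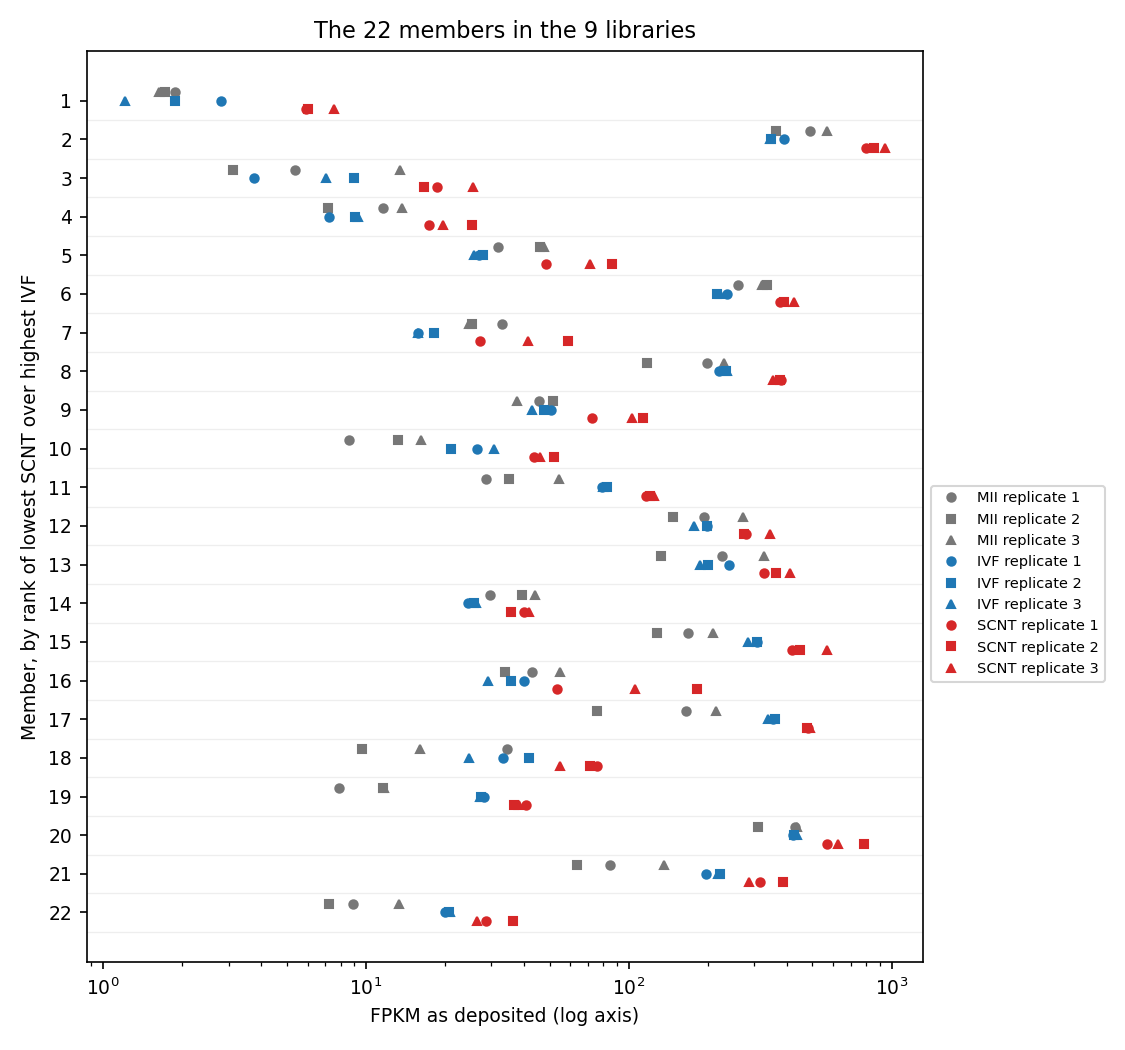
FPKM as deposited (log axis) of the 22 members in the 9 libraries, by rank; grey is MII, blue IVF and red SCNT, and circles, squares and triangles are replicates 1, 2 and 3. Red lies right of blue in every row because the rule asked for it, while the grey oocyte points lie right of blue at ranks 5, 6, 7 and 14, and left of it at ranks 10, 11, 15, 17, 19, 21 and 22.

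How many genes the rule chose depended on single libraries. Without SCNT replicates 1, 2 and 3 it chose 88, 32 and 40 genes, and without IVF replicates 1, 2 and 3 it chose 37, 40 and 35. All 22 members were among the genes chosen each time. The gap can only loosen when a SCNT or IVF library is left out. Leaving out a SCNT library also moves the SCNT mean, which other conditions bound. These counts show how much each library narrowed the choice and say nothing on whether the difference would recur in other libraries.

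SCNT replicate 1 narrowed the choice most. It was the lowest of the SCNT libraries in 13 of the 22 members and the highest in 3. The same held for the 2716 genes, where it was the lowest in 53.6% and the highest in 17.3%. It also had the lowest median of the SCNT libraries over all genes tested, 3.27 on the log2(FPKM + 1) scale, against 3.48 and 3.39 in replicates 2 and 3. SCNT replicate 3 was the highest in 10 members and replicate 2 in 9.

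Set against the oocyte, the members fell into 3 patterns. In 4 members every IVF library was below every oocyte library, where 11.6% of all genes tested had that order. In 7 members every IVF library was above every oocyte library, where 48.4% of all genes had it, and in the other 11 the IVF and oocyte libraries overlapped. The limma fit called those 4 lower and those 7 higher in IVF embryos than in oocytes, where 9.47% and 44.5% of all genes tested were called. None of the 11 overlapping members was called. The number called lower was 1 with FPKM rescaled to a common total, 2 without the filter on low values and 2 without MII replicate 3, IVF replicate 1 or IVF replicate 3. The rule puts IVF libraries below SCNT libraries and SCNT means below 4 times the oocyte, so it holds IVF levels down and these counts are a description. Of the 2716 genes, every IVF library was below every oocyte library in 15 (0.552%) and above in 2159 (79.5%).

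The first pattern, in ranks 5, 6, 7 and 14, was a fall below the oocyte level in IVF embryos with the SCNT level at or above that of the oocyte. IVF means were 0.60 to 0.74 of the oocyte mean in these 4 members, and SCNT means 1.04 to 1.64 times it. ENSBTAG00000000569 (rank 7) had the most negative IVF difference. The IVF replicates had 15.8, 18.1 and 15.8 FPKM and the oocyte replicates 32.9, 25.2 and 24.6 FPKM, while the SCNT replicates were at 27.2, 58.5 and 41.2 FPKM. SCNT replicate 1 lay within the oocyte range and the other SCNT libraries above it. The log2 difference between IVF embryos and oocytes was -0.69 (SE 0.235). Its call was lost when MII replicate 1, IVF replicate 1 or IVF replicate 3 was left out, and with no filter on low values.

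ENSBTAG00000014713 (rank 5) had the next most negative IVF difference, -0.59 (SE 0.211). The IVF replicates were at 26.9, 27.9 and 25.8 FPKM and the oocytes at 31.8, 45.8 and 47.4 FPKM. The SCNT replicates were at 48.3, 86 and 71.4 FPKM, all above the oocytes, with replicate 1 only just so. Leaving out MII replicate 2 or 3 or any IVF library ended its call between IVF embryos and oocytes, as did rescaling FPKM to a common total and leaving out the filter on low values.

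The remaining members of this pattern had closer SCNT libraries, with CVs of 6.46% at rank 6 and 8.13% at rank 14. At rank 6 the SCNT replicates had 375, 391 and 425 FPKM, the IVF replicates 237, 217 and 222 FPKM and the oocyte replicates 261, 336 and 320 FPKM. The groups did not overlap, and the order from low to high was IVF, oocyte, SCNT. In the member of rank 14 the SCNT replicates, at 40, 35.5 and 41.7 FPKM, overlapped the oocytes, at 29.6, 39.2 and 43.8 FPKM. Its IVF replicates lay below both, at 24.4, 25.8 and 26.2 FPKM. With a mean SCNT level of 1.04 times the oocyte it was the member whose SCNT level was closest to that of the oocyte.

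The second pattern, in ranks 10, 11, 15, 17, 19, 21 and 22, was a level above the oocyte in both kinds of embryo, higher in SCNT embryos. IVF means were 1.79 to 2.64 times the oocyte mean and SCNT means 2.84 to 3.72 times. The SCNT to IVF ratio of means was 1.38 to 1.80, where the 11 overlapping members had 1.54 to 3.31 with a median of 2.05. None of the 7 was called between SCNT and IVF embryos. The rule's limit of 4 times the oocyte caps this ratio more tightly the higher the IVF level is. Nothing is therefore read from the lower ratios or the absence of calls. All 7 were called higher in SCNT embryos than in oocytes.

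ENSBTAG00000008005 (rank 19) had the largest IVF difference from the oocyte. The oocyte replicates had 7.89, 11.6 and 11.7 FPKM, the IVF replicates 28, 27.3 and 27.1 FPKM and the SCNT replicates 40.8, 36.7 and 38.1 FPKM. The 3 groups did not overlap. The lowest SCNT library was 1.31 times the highest IVF library, among the smaller gaps of the members. Oocyte replicate 1 was below the other oocyte libraries. The log2 difference from the oocyte was 1.34 (SE 0.156) in IVF and 1.81 (SE 0.156) in SCNT embryos. ENSBTAG00000012784 (rank 17) came next. Its oocyte replicates had 166, 75.6 and 214 FPKM, its IVF replicates 354, 359 and 337 FPKM and its SCNT replicates 480, 475 and 490 FPKM. Its oocyte libraries were spread widely, while the SCNT libraries varied least of any member (CV 1.61%). Its log2 difference between IVF embryos and oocytes was 1.32 (SE 0.288).

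ENSBTAG00000005315 (rank 10) belonged to this pattern too and had a SCNT mean of 47 ± 4.33 FPKM (SD, n = 3), 3.72 times the oocyte mean of 12.6 ± 3.79 FPKM (SD, n = 3). Its IVF mean was 26.1 ± 4.87 FPKM (SD, n = 3). The SCNT replicates were at 43.5, 51.8 and 45.7 FPKM, the IVF replicates at 26.5, 21 and 30.7 FPKM and the oocytes at 8.61, 13.2 and 16.1 FPKM. No group overlapped another. The log2 difference between SCNT embryos and oocytes was 1.85 (SE 0.213).

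The third pattern held the other 11 members, in which IVF libraries overlapped the oocytes and SCNT libraries were mostly above both. Ratios of SCNT to oocyte means ran from 1.47 to 3.74 and of IVF to oocyte means from 0.763 to 1.66. The members of ranks 1 and 2 belong here. So does ENSBTAG00000031757 (rank 18), with the largest log2 difference between SCNT embryos and oocytes, 1.86 (SE 0.357). The SCNT replicates had 75.5, 71.2 and 54.9 FPKM, the IVF replicates 33.4, 41.8 and 24.7 FPKM and the oocyte replicates 34.3, 9.68 and 16 FPKM. Its oocyte value in MII replicate 1 lay among the IVF values, so that the IVF and oocyte libraries overlapped through that library.

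Other members of the third pattern differed in how firmly their SCNT libraries stood together. At rank 16 the SCNT replicates were at 53.2, 181 and 105 FPKM, the widest spread of any member (CV 56.9%), while the IVF replicates had 40, 35.7 and 29.1 FPKM and the oocyte replicates 42.6, 33.9 and 54.6 FPKM. SCNT replicate 1 lay within the oocyte range and the others far above it, and the ratio of SCNT to IVF means was 3.24. At rank 8 the SCNT replicates were close, at 380, 376 and 352 FPKM. There the IVF replicates had 220, 235 and 237 FPKM and the oocyte replicates 199, 118 and 231 FPKM. At rank 3 the oocytes ran from 3.13 to 13.5 FPKM, 4.32 times from lowest to highest, while the SCNT libraries stood at 16.7 to 25.5 FPKM.

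**Figure D3:**
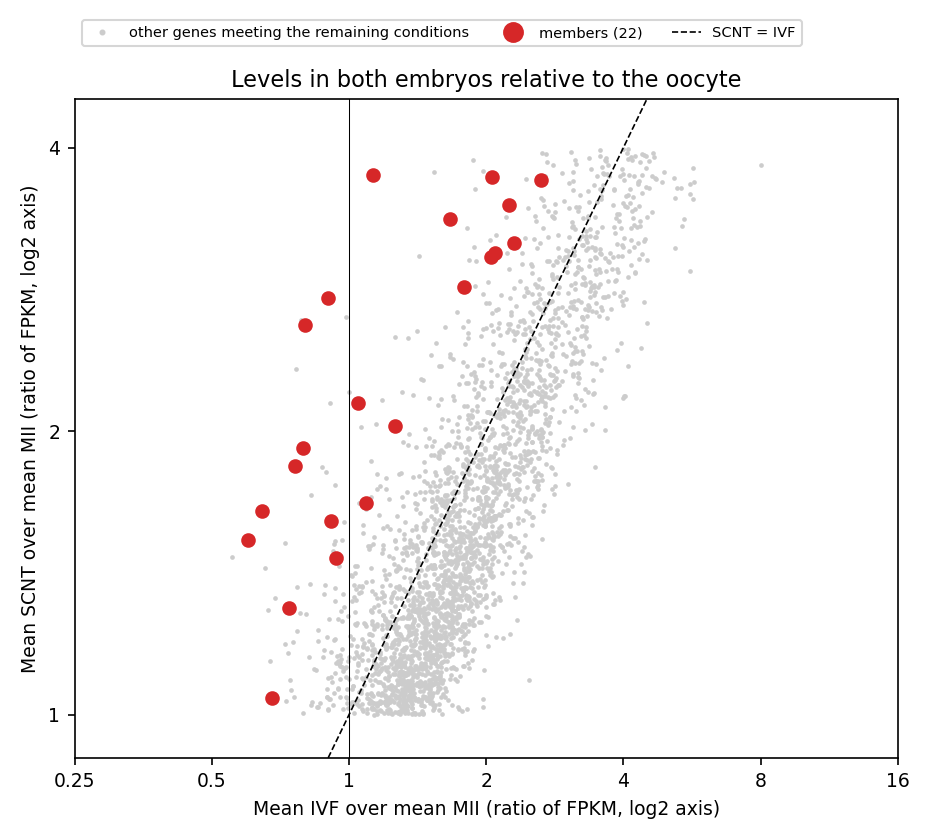
Mean SCNT over mean MII against mean IVF over mean MII (ratios of FPKM, log2 axes) for the 22 members (red) and the other genes that meet the conditions apart from the gap (grey); the dashed line marks equal levels in both embryos and the thin line the oocyte level. Red points lie above the dashed line by rule, 10 of them left of the oocyte level and 12 right of it.

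In the comparison of SCNT embryos with oocytes, every SCNT library was above every oocyte library in 18 of the 22 members, where 37.3% of all genes tested had that order, and the limma fit called 20 higher, where 33.8% were. The rule asked for a SCNT mean at or above the oocyte mean, so nothing is read from these counts. Among the 2716 genes, which share that condition, 1745 (64.2%) had every SCNT library above every oocyte library. The 4 members whose SCNT and oocyte libraries overlapped were those of ranks 7, 13, 14 and 16. Log2 differences between SCNT embryos and oocytes ran from 0.07 to 1.86 with a median of 1.14, against 0.16 for all genes. Those between IVF embryos and oocytes ran from -0.69 to 1.34 with a median of 0.08, against 0.40 for all genes. Both comparisons use the same oocyte libraries.

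The median CV of the members was 27.1% in oocytes, 6.69% in IVF embryos and 15% in SCNT embryos. In the 2716 genes it was 16.5%, 10.5% and 12.5%. For a given difference of means, the gap in the rule favours genes with little spread within IVF and within SCNT libraries. The members' median CV was below that of the 2716 genes only in IVF embryos. These CVs are a description. MII replicate 3 was the highest oocyte library in 17 of 22 members (77.3%), against 43.4% of the 2716 genes, and MII replicate 2 the lowest in 13 (59.1%), against 31.8%. The order MII replicate 2, 1, 3 from low to high was the most frequent, in 12 members. Over all genes tested MII replicate 2 had the highest median of the oocyte libraries, 3.26 on the log2(FPKM + 1) scale. Without MII replicate 1 the rule chose 21 genes, 20 of them members, without MII replicate 2 it chose 28 with all members, and without MII replicate 3 it chose 21 with 19 members.

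Per library, the median log2(FPKM + 1) of the members was 6.61 ± 0.337 (SD, n = 3) in SCNT embryos, 5.42 ± 0.171 (SD, n = 3) in IVF embryos and 5.48 ± 0.202 (SD, n = 3) in oocytes. Medians of all genes tested were 3.38 ± 0.109, 3.68 ± 0.0595 and 3.11 ± 0.148 (SD, n = 3). The medians of the members in IVF embryos and oocytes differed by -0.06, less than the spread between libraries. This difference was -0.30 after median-ratio scaling and -0.35 after quantile normalization, beyond the pooled SD of 0.187, and it was positive with FPKM rescaled (0.02), without MII replicate 3 (0.05) and without IVF replicate 3 (0.04). Medians of the 2716 genes were 0.85 higher in IVF embryos than in oocytes. The difference of the per-library medians between SCNT and IVF embryos, 1.19, is another quantity than the median of the members' own fitted differences, 0.81.

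**Figure D4:**
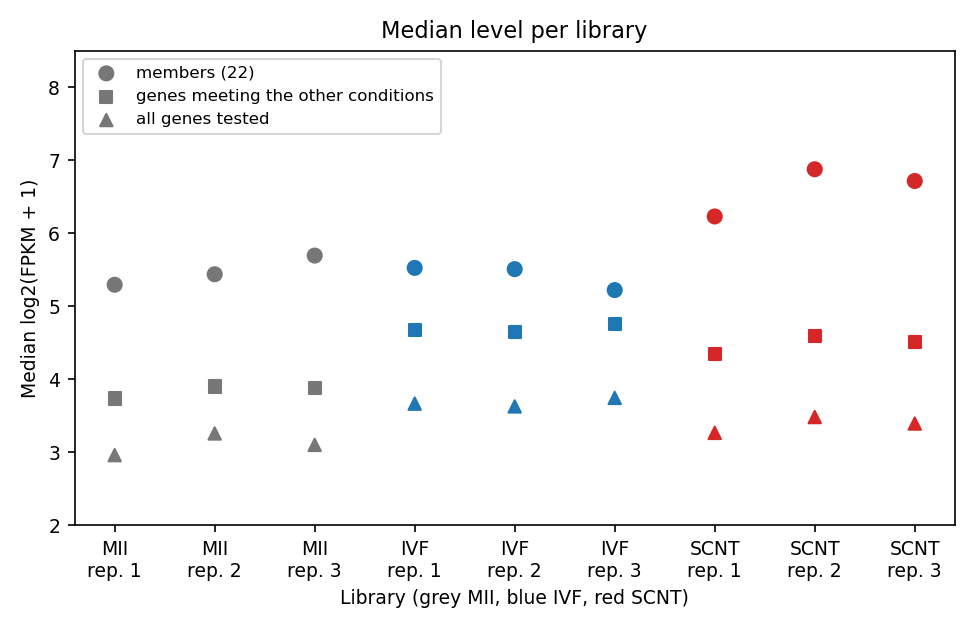
Median log2(FPKM + 1) per library of the 22 members (circles), the 2716 genes meeting the conditions apart from the gap (squares) and all 9458 genes tested (triangles); grey is MII, blue IVF and red SCNT. Circles stand at 6.23 to 6.88 in SCNT libraries and at 5.22 to 5.69 in the others, while squares and triangles are lower in SCNT than in IVF libraries.

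The order of SCNT above IVF libraries did not depend on the scaling for any member, but membership did. Rescaled to a common total, 22 of 22 members still had every SCNT library above every IVF library, and 16 kept the gap of 25%. With median-ratio scaling, which levels the libraries on genes averaging 10 FPKM or more and above 0 in all of them, 22 kept the gap and the rule chose 117 genes. With quantile normalization, which makes the distributions equal, 20 kept it and the rule chose 108 genes, 19 of them members. The median difference of all genes tested between SCNT and IVF embryos was -0.31, -0.04 and -0.03 under these scalings. Median-ratio scaling and quantile normalization hold it small by construction. The number of members with an IVF mean below the oocyte mean was 10 as deposited, 10 rescaled, 13 after median-ratio scaling and 12 after quantiles were made equal. Members with every IVF library below every oocyte library numbered 4, 1, 5 and 5 in the same order.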

How the data were processed

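RNA was sequenced from 9 pools, 3 of mature oocytes and 3 of each kind of 2-cell embryo, and the authors deposited FPKM values per Ensembl gene identifier. The submitters' processing notes name RSEM 1.2.12, HISAT 0.1.6, Bowtie2 2.2.5, bcl2fastq 2.16 and StringTie 1.0.4, beside the bovine assembly UMD3.1, without their roles or order. No source used here says whether strand was used. FPKM is relative to each library's total, and the absolute depth is unknown.

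The members, the rule and the alternatives were chosen with earlier results of these data known. The rule was applied to FPKM as deposited. For the fits, values were taken as log2(FPKM + 1), with a pseudocount of 1, for the 9458 genes that reached 1 FPKM in 3 or more of the 9 libraries. limma 3.58.1 (R 4.3.3) was fitted with 1 term per group over all 9 libraries, with Benjamini-Hochberg adjustment over all genes tested and a threshold of 0.05. The fit was tested on simulated data with independent noise and the same spread of a gene in every group. That test says nothing on unequal spreads or on how the counts move with the libraries fitted. Tables were made with Python 3.11.15, pandas 2.3.3 and numpy 2.4.6 and figures with matplotlib 3.10.9. Standard deviations are over the 3 libraries of a group.

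The identifiers named are, without symbols, the members of ranks 1 and 2 between SCNT and IVF embryos and, in each comparison with oocytes, up to 2 members per direction with the most negative or most positive log2 difference. Other members described by rank were chosen after their values were seen. Alternatives were other pseudocounts, no filter, other scalings, other gaps, a higher oocyte minimum, a replicate block, fits of the compared groups alone and leaving out each library. Gene lists, markers and sequences were not used here, since no identifier was paired with a name.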

Additional observations from a re-analysis of the deposited data

How the results depend on the processing

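The gap in the rule fixes the sign of the members between SCNT and IVF embryos on these libraries as deposited. The size of the difference could still move. Between per-library medians it was 1.05 to 1.45 over the settings, against 1.19 in the main one. The number of members called by limma moved as well. It was 4 of 22 and became 1 with a pseudocount of 0.1, 0 without the filter on low values (19 at an unadjusted p under 0.05), 2 with FPKM rescaled to a common sum, 8 after median-ratio scaling, 10 after quantile normalization, 18 at an adjusted p under 0.1 and 22 in a fit of the 6 libraries compared. Of all genes the main fit called 11 higher, and these settings called 5, 11, 9, 27, 48, 157 and 141 in the same order. The fit with the replicate block called 2 members, and 7 of all genes higher. Same-numbered libraries correlated at -0.167 to -0.00078 in their deviations from the group means, against -0.0917 to 0.111 for other pairs, so the numbers gave no sign of pairing. Leaving out 1 library gave 0 to 20 called members, where 0 to 172 of all genes were called higher. No other tool than limma was run. Counts called against oocytes in either direction were 14 to 21 for SCNT and 9 to 13 for IVF embryos. Of the latter, 6 to 9 were higher and 1 to 5 lower, where the reported counts were 7 and 4. The difference of per-library medians between IVF embryos and oocytes moved from -0.06 to -0.30 with median-ratio scaling and to -0.35 with quantile normalization, and changed sign with FPKM rescaled and without MII replicate 3 or IVF replicate 3. The rule chose 78 genes at a gap of 1.1, 7 at 1.5, 117 after median-ratio scaling, 108 after quantile normalization and 21 to 88 with 1 library left out. The cause was not tested. With 3 libraries a group and no absolute depth, an exact test of 1 gene could not go below 0.10.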

Other observations

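Some genes missed the rule by a single condition other than the gap. The condition that the SCNT mean stay under 4 times the oocyte mean alone kept out 20 genes, the condition that it reach the oocyte mean 10, and the limit of 1000 FPKM on the mean over all libraries 6. The minimum of 1 FPKM in every oocyte library and that of 5 FPKM for the SCNT mean kept out 2 each. Across the 9 libraries the members' log2 values correlated pairwise between -0.129 and 0.998 with a median of 0.70 over 231 pairs, 31 of them above 0.9. The pairs share the libraries and were chosen for the same order of SCNT and IVF libraries, so this is a description.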
